A study of Mus musculus with 28 samples.

Results

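The cultures described here are 7 of the 14 Emu-myc B-cell lymphomas of the study, those in which the collagen gene Col1a2 changed least between the untreated array and the array after Adriamycin (ADR, the anthracycline doxorubicin, a drug that damages DNA). Each lymphoma was measured once without and once with the drug, so these cultures make 7 pairs, 14 of the 28 arrays. The lymphomas were chosen by a measured value: the log2 level of the brightest of the Col1a2 probe sets after ADR minus that in the untreated culture. Every gene was then compared between both arrays of these 7 lymphomas only.

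Both groups came from lymph nodes of C57BL/6 mice carrying the Emu-myc transgene, in which an immunoglobulin heavy chain enhancer drives c-Myc in B-lineage cells. All cultures, untreated ones included, had been transduced with Bcl2 in the MSCVpuro retrovirus and selected with puromycin. All grew over a feeder layer of NIH 3T3, a line of mouse fibroblasts, that had been gamma-irradiated. The untreated group received no drug, and the ADR group received 0.05 µg/ml for 5 days. Each lymphoma has its own identifier, used below as its name, so the pairs are separate tumours, with 1 culture per state. Ages of the mice are not given in the sources used here.

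Bcl2 blocks apoptosis, and lymphoma cells protected in this way that are hit by a DNA-damaging drug can enter senescence, a lasting arrest of the cell cycle with active metabolism. Senescent cells are known for switching off genes of replication and mitosis, often through p53 and its target p21 (Cdkn1a), and for secreting cytokines, chemokines and proteases. Fibroblasts express many of the same secreted factors, and they also make collagens and other matrix proteins in large amounts. RNA of feeder cells in a lysate is read together with RNA of the lymphoma cells, and in such mixed samples fewer cells of a type and less RNA per cell cannot be told apart.

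The Col1a2 values that chose the cultures are a description and carry no test. In lymphoma 1467 the log2 level of Col1a2 was 5.55 untreated and 5.93 after ADR, a change of 0.38. In 2949 it went from 5.82 to 6.58, in 5043 from 5.55 to 6.47 and in 1570 from 5.38 to 6.47, changes of 0.75, 0.92 and 1.08. In 9584 it went from 5.78 to 7.13, in 6054 from 7.49 to 9.73 and in 9583 from 5.53 to 7.80. The last of these, with a change of 2.27, lay just inside the limit, and lymphoma 3769, with a change of 3.57, lay just outside it. In the other 7 lymphomas the change reached 6.31.

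The values bear out the label "little feeder fibroblast RNA" only in part. Col1a2 was higher after ADR in all 7 lymphomas, and in 6054 its ADR level was above that of 4 of the other 7 lymphomas, so these cultures had smaller rises of fibroblast genes rather than none. Fibronectin (Fn1) and biglycan (Bgn), a matrix protein and a matrix proteoglycan, followed the same order loosely. Fn1 changed by -0.50 in 1467, by 1.04 in 2949, by 1.10 in 5043, by 2.30 in 1570, by 1.32 in 9584, by 1.38 in 6054 and by 3.19 in 9583. Bgn changed by -1.09 in 1467 and by up to 3.60 in 9583. In 1467 both genes were lower after ADR, and in 9583 both rose more than in any other of the 7. The mean log2 level of the 7 fibroblast markers (Col1a2, Fn1, Bgn, Col1a1, Col3a1, Sparc and Pdgfrb) lay between 5.05 and 6.40 in the untreated arrays and between 5.50 and 7.84 after ADR, against 7.51 to 10.1 after ADR in the other 7 lymphomas. Pdgfrb, a growth factor receptor of fibroblasts, stayed between 4.39 and 5.00 in all 14 arrays.

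**Figure D1:**
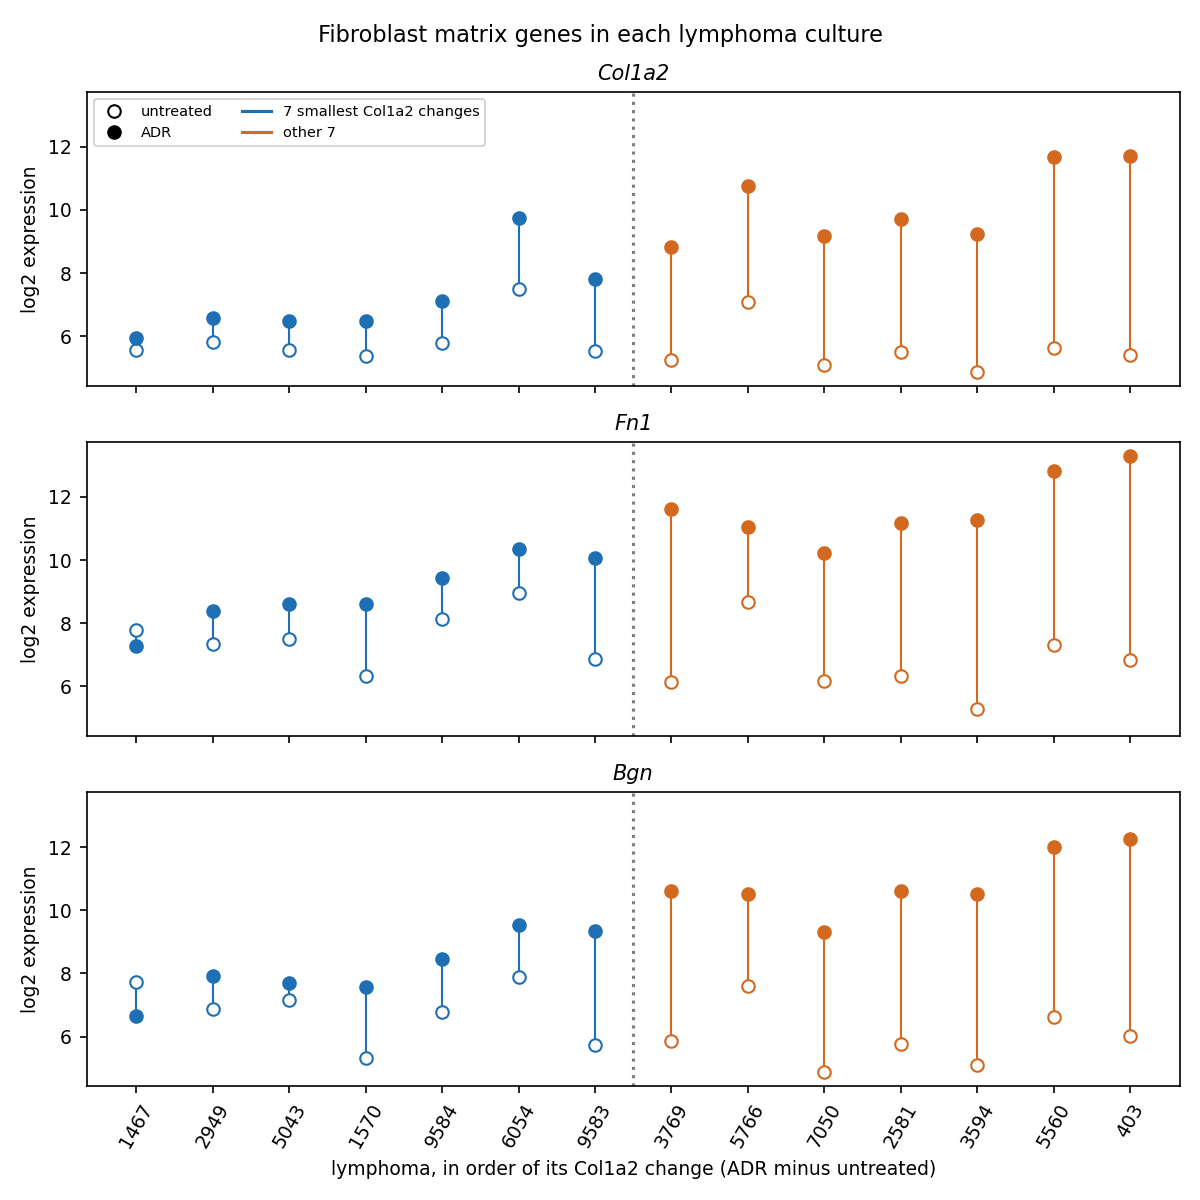
Log2 expression of Col1a2, Fn1 and Bgn (vertical axes) in each of the 14 lymphomas (horizontal axis, in order of the Col1a2 change), with an open circle for the untreated array and a filled circle for the ADR array. Blue lymphomas, left of the dotted line, are the 7 with the smallest Col1a2 change. The filled circle of 6054 for Col1a2 lies at 9.73, above those of 4 lymphomas right of the line.

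Cultures of these 7 lymphomas did express B-cell genes. The mean level of 6 measured B-cell markers (Cd79a, Cd79b, Ms4a1, Pax5, Ebf1 and Cd22) lay between 8.62 and 9.66 untreated and between 7.78 and 10.1 after ADR. Macrophage markers were also present. Their mean level (Csf1r, Adgre1, Cd68, Cd14, Ms4a7 and C1qa) ranged from 5.30 to 8.81 untreated and from 6.92 to 10.1 after ADR, and all 6 were higher on average after ADR. Plasma-cell markers (Prdm1, Sdc1, Jchain and Tnfrsf17) had a mean level between 6.03 and 9.77 untreated (median 6.58) and between 5.82 and 8.98 after ADR (median 7.93). Means of the remaining marker lists were below those of the B-cell and plasma-cell lists, but T-cell means overlapped the untreated macrophage range. Single genes stood above their lists: Zap70 (T cell) lay between 7.33 and 8.17, Pecam1 (endothelial) between 6.84 and 8.41, and S100a8 (granulocyte) reached 8.94. A low list mean therefore does not show that a cell type was absent. Granulocyte markers lay between 3.88 and 4.92 untreated and between 4.03 and 4.91 after ADR, T-cell markers between 5.25 and 5.78 and between 5.29 and 5.59, NK-cell markers between 4.06 and 4.62 and between 4.06 and 4.46, and endothelial markers between 4.68 and 4.95 and between 4.78 and 5.11. Of the longer lists for these types, S100a8 (change 1.05), a calcium-binding protein of granulocytes and monocytes, was the only granulocyte gene of 10 to rise, Egfl7 (-1.06) the only endothelial gene of 9 to fall, and none of 10 T-cell, 8 NK-cell or 8 plasma-cell genes passed the test. Such counts stand beside 5.72% of all genes higher and 4.61% lower.

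Some arrays stood apart, which bears on all results below. The ADR array of 1570 had the largest gap between 3' and 5' signals of Gapdh among the 7 ADR arrays, 0.92 against at most 0.38 in the others, and the same gap for actin, 0.92 against at most 0.70. Gapdh gaps of the untreated arrays lay between -0.02 and 0.03, and those of the other 7 lymphomas reached 0.08. The second ADR value of 0.38 was thus also above all of these. Lymphoma 9584 did not carry the same Y-linked signal in its pair: Eif2s3y read 4.74 untreated and 8.61 after ADR, so these arrays may not hold the same cells, and 9584 is written below as labelled. By correlation of deviations from the group means, its untreated array still matched its own ADR array best (0.36). The untreated arrays of 2949 and 6054 did not. They correlated at 0.45 and 0.60 with their own ADR arrays, and at 0.49 and 0.66 with that of 5766. Both are also written as labelled. Leaving out 1570 and 9584 gave 555 genes higher and 693 lower after ADR, against 1040 and 838 in all 7. The 3 lymphomas whose labels do not name an earlier series (5043, 9583 and 9584) were all among the 7, so the choice of cultures and the series of arrays cannot be told apart in any comparison with the other 7. Across pairs, neither 3' to 5' gap passed a test of the difference between the states (exact sign-flip test, two-sided, p = 0.484 for actin and p = 0.109 for Gapdh, n = 7 pairs, smallest possible p = 0.0156).

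After ADR, 1040 of 18193 genes rose and 838 fell in the 7 lymphomas (limma with the lymphoma as a block, Benjamini-Hochberg adjusted p under 0.05), which is 5.72% and 4.61% of the genes tested. Because the lymphomas were chosen on the same contrast, nothing is read from these shares, and the p-values below take no account of the choice. Counts within a gene list, given below, stand beside these shares. Counting genes that passed the test with 1 direction in 7 of 7 lymphomas, and leaving the fibroblast list aside, the 10 strongest rises included Ms4a6d and Lyz2 of the macrophage list, Cxcl2 and Cxcl3 of the chemokine list and Mmp13 of the protease list. Of the 10 deepest falls by that rule, 8 were on the G2/M list. At 2-fold or more, 206 genes rose and 258 fell. The other 7 lymphomas, fitted the same way, had 2753 genes higher (15.1%) and 2854 lower (15.7%). Of the genes that rose in the 7, 709 also rose in the other 7 (68.2% of the list of the 7 and 25.8% of the other), and 657 fell in both (78.4% and 23%). Only 18 genes were called in opposite directions, 13 higher in the 7 and lower in the other 7, and 5 the other way. The difference between both sets of lymphomas was not tested, here or below.

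**Figure D2:**
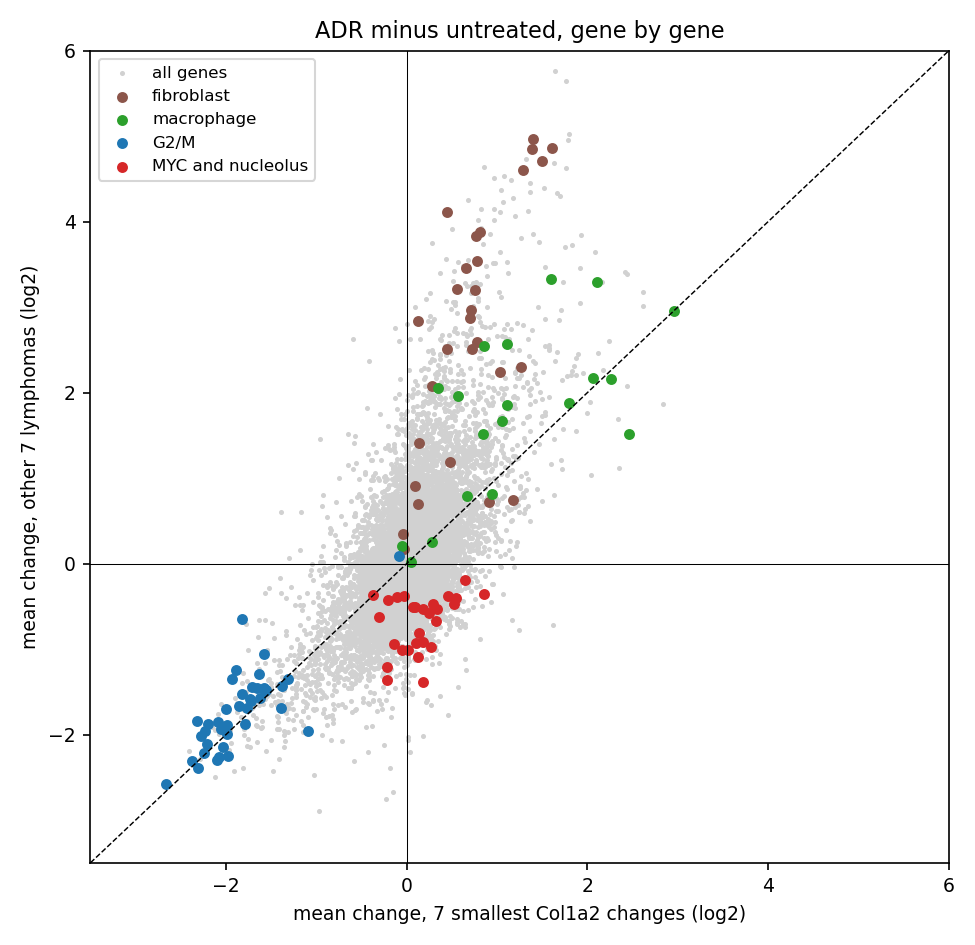
Mean change of each gene after ADR (log2) in the 7 lymphomas with the smallest Col1a2 change (horizontal axis) and in the other 7 (vertical axis), for 18193 genes, with 4 gene lists in colour and the dashed line marking equal change. Mitotic genes (blue) lie along the line, fibroblast genes (brown) lie far above it, and MYC and nucleolus genes (red) lie below it.

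Genes of mitosis fell in these cultures, with values near those of the other 7. Of 41 measured G2/M genes, 40 fell and none rose, with a median change of -1.89, against -1.70 in the other 7 and 0.02 over all genes. Without 1570 and 9584, 40 still fell, with a median of -2.16. Leaving out any 1 lymphoma left between 36 and 40. The exception among the 41, Kif15, a spindle motor, changed by -0.09.

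Kif11 is the motor protein that pushes the spindle poles apart. Outside the fibroblast list, it had the largest fall among genes that passed the test and fell in 7 of 7 lymphomas. Its log2 level ranged from 8.80 to 9.62 with a median of 8.96 in the untreated arrays, and from 3.76 to 8.44 with a median of 6.12 after ADR. The groups did not overlap. The change was -2.67 ± 0.44 (log2, mean and standard error, n = 7 pairs; limma adjusted p = 0.0075), and the other 7 gave -2.58. Within the 7 it ran from -5.15 in 2949 to -0.52 in 9584.

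Ccnb2, a mitotic cyclin that activates Cdk1, ranged from 9.84 to 10.63 with a median of 10.11 untreated and from 5.72 to 9.87 with a median of 7.46 after ADR. The highest ADR value, in 9584, lay within the untreated range, and the others lay below it. The change was -2.37 ± 0.42 (adjusted p = 0.00934). The spindle checkpoint kinase Bub1 (change -2.32), the chromosome passenger kinase Aurkb (-2.31), cyclin A2 (Ccna2, -2.25) and the midbody protein Cep55 (-2.16) had no overlap between the groups, with adjusted p from 0.00441 to 0.011. The checkpoint kinase Ttk (-2.23), the ubiquitin-conjugating enzyme Ube2c (-2.20), the mitotic kinase Pbk (-2.19) and the proliferation marker Mki67 (-2.09) fell too, with the ADR values of 9584 inside the untreated range. Mki67 ranged from 10.97 to 11.30 with a median of 11.20 untreated, and from 7.06 to 10.99 with a median of 9.21 after ADR.

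The lymphomas differed widely in the size of this fall. The mean change over the G2/M list was -3.57 in 2949, between -2.13 and -1.40 in 1467, 5043, 1570, 6054 and 9583, and -0.19 in 9584. Col1a2 changes of these lymphomas did not follow that order: 2949 and 9584 were the second and the fifth of the 7. In 9584, S-phase genes (-0.05) and repair genes (0.07) also moved little on average, whereas the means of interferon genes (1.59) and chemokines (1.33) were the highest of the 7. By series, the G2/M mean was -2.33 in the 4 lymphomas of the earlier series and -1.20 in 5043, 9583 and 9584. Interferon means of the same groups were 0.61 and 1.12, and chemokine means 0.63 and 1.10. These splits were not tested.

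The promoters of the G2/M genes are shown because members that fell together often carry the cell cycle homology region, the letters TTTGAA on either strand, which is known as a binding element for complexes that repress these genes. In windows of 250 bases before to 50 after the start site from RefSeq (build GRCm38.p6), 27 of 35 windows (77.1%) from 33 genes of the list held it, against 17.9% of 32851 windows of all genes. Windows of Kif11 (chr19:37376132-37376431, plus strand), Ube2c (chr2:164769679-164769978, plus strand) and Ccnb2 (chr9:70421505-70421804, minus strand) follow 5′ to 3′, with the matches in capitals.
Kif11: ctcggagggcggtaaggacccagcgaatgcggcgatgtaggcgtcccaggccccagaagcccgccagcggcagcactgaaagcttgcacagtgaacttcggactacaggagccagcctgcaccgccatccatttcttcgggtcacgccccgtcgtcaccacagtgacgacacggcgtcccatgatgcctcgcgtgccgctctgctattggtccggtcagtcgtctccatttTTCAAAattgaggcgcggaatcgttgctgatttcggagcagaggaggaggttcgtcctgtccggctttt
Ube2c: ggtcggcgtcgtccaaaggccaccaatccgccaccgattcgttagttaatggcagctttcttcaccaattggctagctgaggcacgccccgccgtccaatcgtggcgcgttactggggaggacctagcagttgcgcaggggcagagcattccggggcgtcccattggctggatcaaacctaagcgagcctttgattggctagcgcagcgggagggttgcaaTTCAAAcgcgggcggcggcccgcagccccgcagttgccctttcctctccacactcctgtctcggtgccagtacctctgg
Ccnb2: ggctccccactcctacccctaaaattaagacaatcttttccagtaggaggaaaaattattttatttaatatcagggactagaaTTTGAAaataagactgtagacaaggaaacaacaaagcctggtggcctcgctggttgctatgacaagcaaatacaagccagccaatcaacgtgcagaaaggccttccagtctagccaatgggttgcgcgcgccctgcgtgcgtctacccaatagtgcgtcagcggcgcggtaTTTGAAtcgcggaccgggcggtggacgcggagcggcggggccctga
A match is a description of the letters. Kif15, with a change of -0.09, also had 2 matches in its window.

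**Figure D3:**
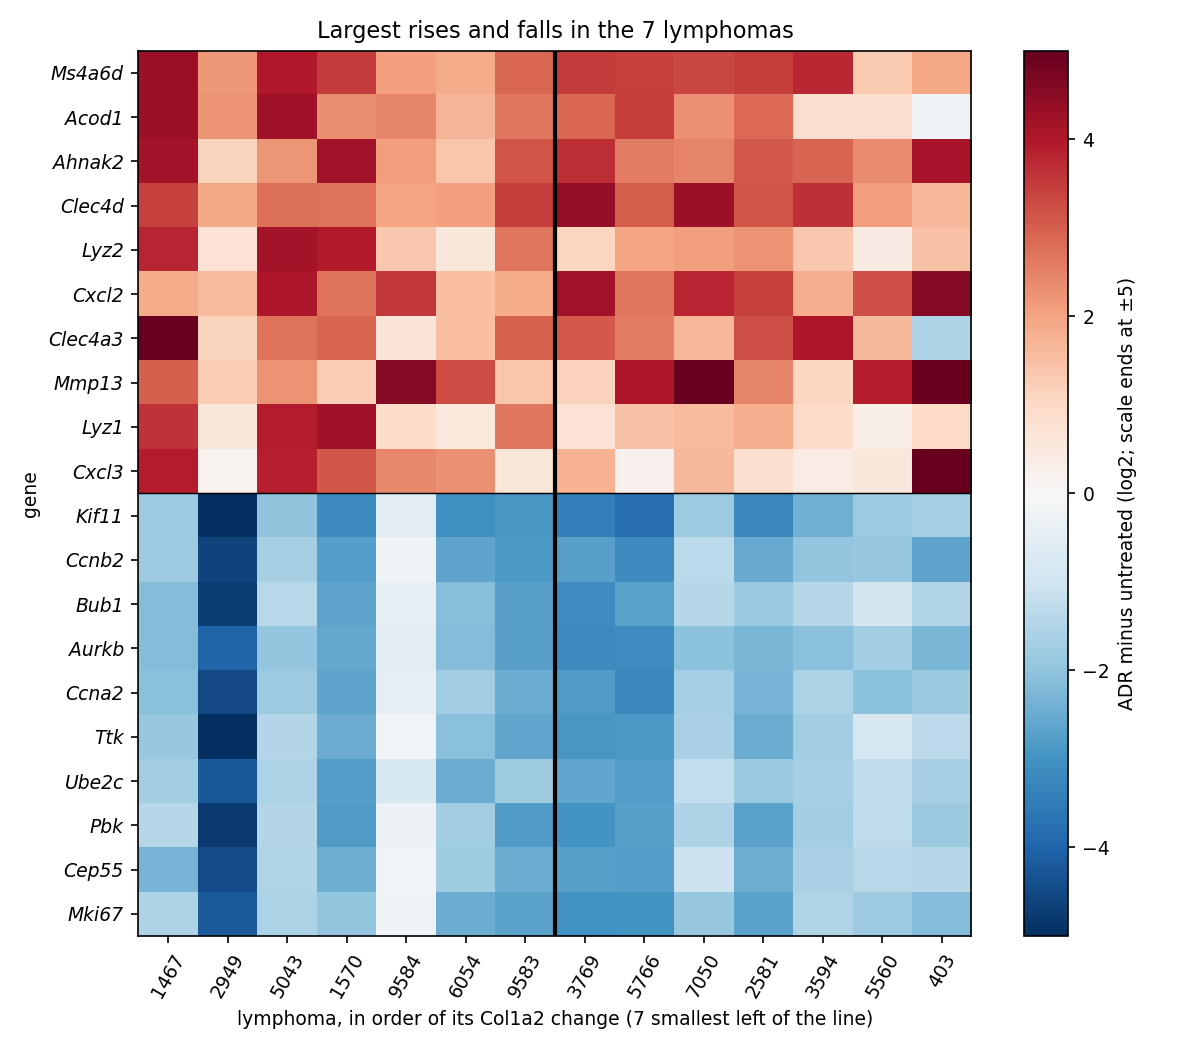
Change after ADR (log2, colour scale from -5 to 5) of the 10 strongest rises and 10 deepest falls (rows; genes that passed the test with 1 direction in 7 of 7 lymphomas, fibroblast list left out), in each of the 14 lymphomas (columns, in order of the Col1a2 change, the 7 left of the vertical line). The fall of mitotic genes is deepest in 2949 and palest in 9584, and Lyz2 and Lyz1 are darkest in 1467, 5043 and 1570.

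Replication and repair genes fell less far. Of 41 measured S-phase genes, 33 fell and none rose (median -1.02, against -1.40 and 41 lower in the other 7). Pola1, the catalytic subunit of the polymerase that starts each DNA strand, ranged from 8.11 to 9.06 with a median of 8.50 untreated, and from 5.01 to 7.73 with a median of 6.61 after ADR. The change of Pola1 was -1.76 ± 0.33 (adjusted p = 0.0123). Thymidine kinase Tk1 ranged from 8.68 to 9.53 with a median of 9.41 untreated, and from 6.12 to 8.25 with a median of 7.85 after ADR, a change of -1.67 ± 0.20 (adjusted p = 0.00295). Neither gene's groups overlapped. The primase subunit Prim1 changed by -1.51 but lost its call without 1570, 6054 or 9583. The 8 S-phase genes that did not pass the test included Pcna (-0.57), the polymerase clamp, and Mcm2 (-0.70), a subunit of the replicative helicase.

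Of 27 genes of homologous recombination and the Fanconi pathway, which repairs DNA crosslinks, 21 fell and none rose (median -0.89, against -1.03 with 24 lower in the other 7). Fancd2, the protein that is ubiquitinated when the Fanconi pathway is switched on, had no overlap between groups. It ranged from 7.35 to 7.85 with a median of 7.50 untreated and from 4.29 to 7.29 with a median of 5.60 after ADR, a change of -1.76 ± 0.31 (adjusted p = 0.00925). Brca1, a recombination factor, changed by -1.70 and lost its call without 5043 or 9583. The count of repair genes depended on single lymphomas: it was 13 without 5043, 12 without 1570 and 11 without 6054 or 9583.

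Chromatin genes fell as well, with 12 of 19 lower and 1, Hmga2, higher (median -0.65, against -1.17 with 15 lower and 2 higher in the other 7). The counts were 7 lower without 9583 and 2 higher without 1467. Hmgb2, a chromatin protein, changed by -1.65 ± 0.32 (adjusted p = 0.0133), and Uhrf1, which guides DNA methylation to new strands, changed by -1.36. Lamin B1 (Lmnb1), whose loss is a marker of senescence, was lower after ADR in 7 of 7 lymphomas, but its adjusted p was 0.0696. It ranged from 7.62 to 9.87 with a median of 8.38 untreated, and from 7.33 to 8.24 with a median of 7.61 after ADR, and the groups overlapped. Its change was -0.84 ± 0.25 on the brightest probe set, against -2.06 in the other 7, and in 1570 alone it was -2.54. A less bright probe set of this gene (mean 7.01 against 8.20) changed by -1.38, against -2.28 in the other 7. Lamin A (Lmna) changed by 0.49 (adjusted p = 0.14), against 1.95.

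The p53 pathway was less clear. Among 33 measured p53 targets 6 rose and 1 fell (median 0.51, against 0.40 with 13 higher and 2 lower in the other 7), and the count that rose ranged from 2 without 5043 and 3 without 9583 to 10 without 2949. It was 2 without 1570 and 9584. Cdkn1a, the CDK inhibitor p21, was already bright in untreated cultures. It ranged from 9.81 to 12.28 with a median of 11.03 untreated, and from 11.14 to 12.31 with a median of 11.91 after ADR, with overlapping groups. The change was 1.05 ± 0.27 (adjusted p = 0.0379), from 0.03 in 2949 to 2.39 in 1570, and the call held only when 2949 was the lymphoma left out. Mdm2, the ubiquitin ligase that degrades p53, changed by 1.05 (adjusted p = 0.0836). Phlda3, an inhibitor of Akt signalling, changed by 1.42 ± 0.30 (adjusted p = 0.0187), and its call was lost without 5043 or 9583. Ephx1, an epoxide hydrolase, changed by 1.20 (adjusted p = 0.0499) and lost its call in 5 of the 7 leave-outs.

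Ddb2, a damage sensor of nucleotide excision repair and a p53 target in human cells, fell in these cultures. It ranged from 7.19 to 9.07 with a median of 7.73 untreated, and from 5.37 to 7.51 with a median of 6.15 after ADR, a change of -1.57 ± 0.22 (adjusted p = 0.00496; lower in 7 of 7). In the other 7 lymphomas its change was -0.66. No other CDK inhibitor of 7 rose. Cdkn2a, which encodes p16 and ARF, changed by 0.08 (adjusted p = 0.789) at levels between 3.16 and 4.59, and Cdkn2b by 0.43 (adjusted p = 0.461). Cdkn2d, an inhibitor of CDK4 and CDK6, fell by 1.18 (adjusted p = 0.00666).

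Survival genes moved little. Bcl2, the transduced gene, ranged from 11.60 to 12.82 with a median of 12.14 untreated, and from 10.09 to 12.33 with a median of 10.88 after ADR on its brightest probe set, a change of -0.96 ± 0.20 (adjusted p = 0.0163). This value rests on that probe set: the other 4 changed by -0.14 to 0.25, and adjusted p was 0.0706 without 1570 and 9584. It was the only one of 14 BCL2 family genes to pass the test, beside 5.72% of all genes higher and 4.61% lower. Bcl2l1, which encodes the survival protein BCL-XL, changed by 0.53 (adjusted p = 0.0706), and the p53 target Bbc3, which encodes the killer protein PUMA, by 0.71 (adjusted p = 0.0769).

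Genes of MYC and the nucleolus, which make ribosomes, had the widest gap among the lists whose medians differed in sign between both sets of lymphomas. In the 7, 3 of 28 rose and none fell (median 0.14), whereas in the other 7 none rose and 22 fell (median -0.56). Over all genes, 5.72% rose and 4.61% fell in the 7, and 15.1% rose and 15.7% fell in the other 7. Utp20, a ribosome assembly factor, ranged from 6.70 to 8.37 with a median of 7.84 untreated, and from 7.98 to 8.97 with a median of 8.59 after ADR, a change of 0.86 ± 0.19 (adjusted p = 0.0212), against -0.36 in the other 7. The groups overlapped, and the call was lost without 5043. Noc3l, also an assembly factor, changed by 0.65 (against -0.19) and lost its call in 4 of 7 leave-outs. Rrp12, an export factor of ribosomal subunits, was one of the 13 genes called higher in the 7 (0.52) and lower in the other 7 (-0.47). Mtor, the growth kinase, was another; both were picked here after their values were seen.

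Only 3 of the 7 lymphomas had a mean above 0 for this list. The mean change over the MYC and nucleolus list was 0.54 in 1467, 0.73 in 2949 and 0.37 in 5043, the lymphomas with the smallest Col1a2 changes. It lay between -0.24 and -0.10 in 1570, 9584, 6054 and 9583, and between -1.15 and -0.07 in the other 7. The list's median was 0.00 without 2949, and none of its genes was called without 5043. Myc itself, the transgene, ranged from 10.42 to 11.98 with a median of 11.44 untreated, and from 9.97 to 11.60 with a median of 11.32 after ADR. Its change was -0.21 ± 0.13 (adjusted p = 0.382), against -1.20 in the other 7.

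**Figure D4:**
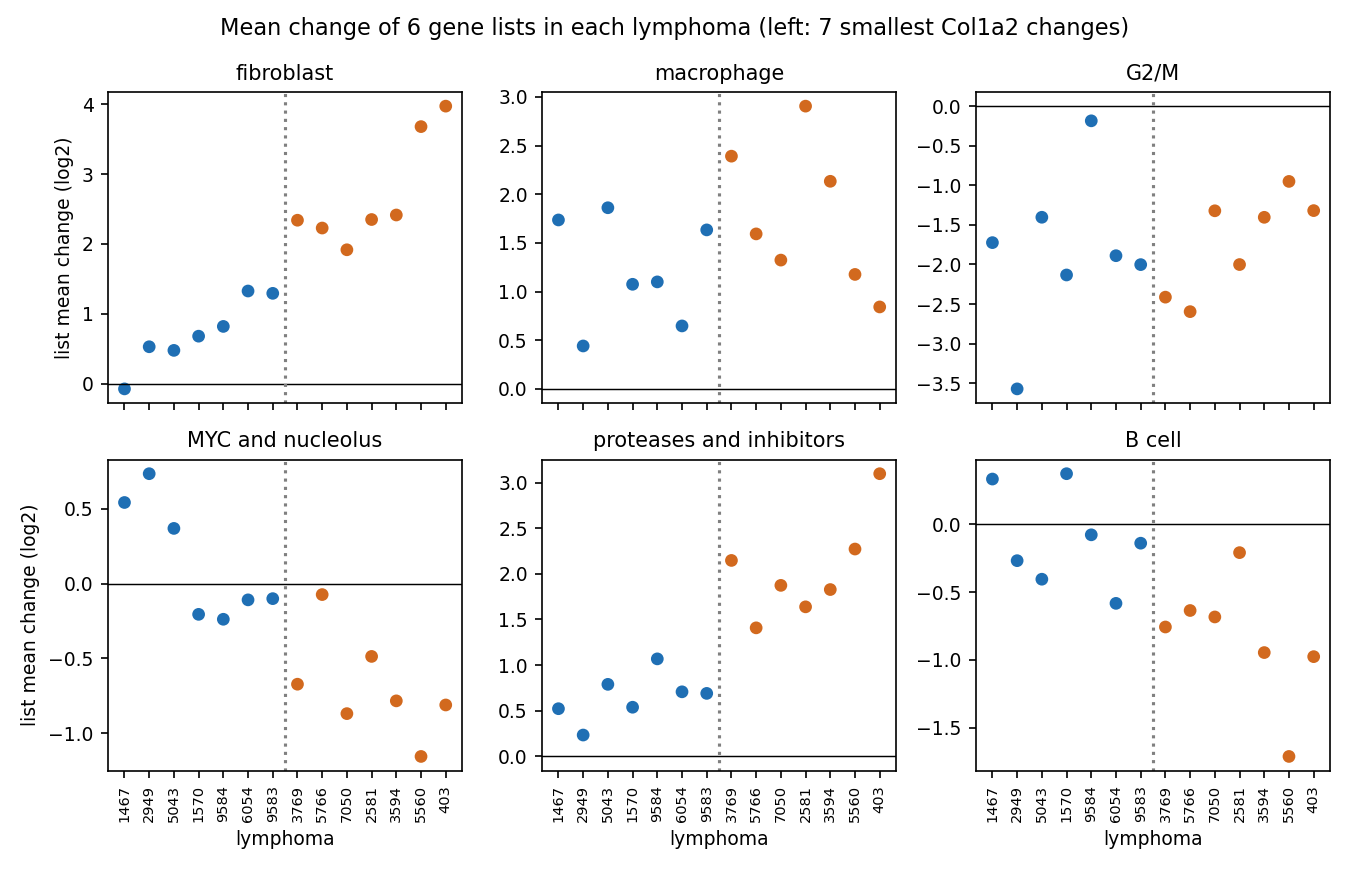
Mean change after ADR (log2, vertical axes) over 6 gene lists in each lymphoma (horizontal axes, in order of the Col1a2 change, the 7 in blue left of the dotted line). The fibroblast list runs from -0.08 to 1.33 in the 7 and from 1.92 to 3.97 in the other 7, the G2/M list shows no such order, and the MYC and nucleolus list is above 0 only in 1467, 2949 and 5043.

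Macrophage genes rose in part. Of 19 measured macrophage genes 10 rose and none fell (median 1.06, against 1.88 with 13 higher in the other 7), and 7 rose without 1570 and 9584. Ms4a6d, a membrane protein of macrophages, had the largest rise outside the fibroblast list among called genes that rose in 7 of 7 lymphomas. It ranged from 4.02 to 8.86 with a median of 5.92 untreated, and from 7.50 to 10.93 with a median of 8.80 after ADR, and it was higher in 7 of 7 lymphomas although the groups overlapped. Its change was 2.96 ± 0.30 (adjusted p = 0.00244), against 2.96 in the other 7. The change was 4.26 in 1467, 4.02 in 5043 and 1.84 in 6054.

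Acod1, which makes the macrophage metabolite itaconate, ranged from 5.38 to 10.48 with a median of 7.13 untreated, and from 8.12 to 12.16 with a median of 10.02 after ADR. The change was 2.84 ± 0.32 (adjusted p = 0.00283), against 1.87 in the other 7. The lectin receptors Clec4d (2.61 ± 0.21) and Clec4a3 (2.43 ± 0.46) rose, as did the lysozymes Lyz2 (2.47 ± 0.48) and Lyz1 (2.35 ± 0.50), which are near-identical copies whose probes may not keep them apart. Lyz2 ranged from 6.21 to 13.21 with a median of 8.95 untreated, and from 10.17 to 13.78 with a median of 12.38 after ADR. Its change was 3.81 in 1467, 4.17 in 5043 and 3.96 in 1570, cultures that began low, and 0.57 in 6054, which began at 13.21. The call of Lyz1 was lost without 5043. Ahnak2, a large scaffold protein that is on none of the lists, changed by 2.61 ± 0.38.

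Csf1r, the receptor for the macrophage growth factor, ranged from 5.31 to 10.09 with a median of 6.85 untreated, and from 6.86 to 11.67 with a median of 8.60 after ADR. The change was 1.80 ± 0.29 on the brightest probe set (adjusted p = 0.00674) and 0.70 and 1.12 on the other 2. Adgre1, the F4/80 antigen, changed by 2.26 ± 0.32 (adjusted p = 0.00467). The complement gene C1qa (0.29, adjusted p = 0.474) and the scavenger receptors Cd163 (0.05) and Mrc1 (-0.05) did not pass the test. Whether the macrophage genes were read from more myeloid cells or from more RNA per cell cannot be told apart. Their part in the rises of the groups below was not tested. For comparison with those groups, the macrophage list rose on average by 1.74 in 1467, 0.44 in 2949, 1.86 in 5043, 1.07 in 1570, 1.10 in 9584, 0.65 in 6054 and 1.63 in 9583.

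Chemokines, which draw white blood cells into a tissue, rose in part. Of 22 measured, 9 rose and none fell (median 0.59, against 0.91 with 10 higher in the other 7), and 5 rose without 1570 and 9584. Cxcl2, a ligand of the receptor Cxcr2, ranged from 3.57 to 8.25 with a median of 5.10 untreated, and from 6.17 to 9.76 with a median of 7.78 after ADR, a change of 2.44 ± 0.31 (adjusted p = 0.00327; higher in 7 of 7, groups overlapping). Cxcl3, another such ligand, ranged from 2.26 to 3.50 with a median of 2.59 untreated, and from 2.67 to 7.37 with a median of 5.20 after ADR, a change of 2.34 ± 0.45 (adjusted p = 0.0134, and 0.0662 without 1570 and 9584). Ccl2, which attracts monocytes, changed by 2.08 ± 0.41 (adjusted p = 0.0148, and 0.0727 without the same lymphomas), against 3.65 in the other 7. The interferon-driven chemokines Cxcl9 (0.07), Cxcl10 (0.18) and Cxcl11 (-0.07) did not pass the test.

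Of 30 measured cytokines 6 rose and none fell (median 0.16, against 1.19 with 20 higher and 1 lower in the other 7). Il1b, the inflammasome product interleukin-1 beta, ranged from 6.14 to 8.72 with a median of 7.54 untreated, and from 8.17 to 11 with a median of 10.16 after ADR. It was higher in 7 of 7 lymphomas with a change of 2.03 ± 0.43 (adjusted p = 0.0182). Il6, the cytokine most used as a marker of the senescent secretome, ranged from 4.24 to 8.74 with a median of 5.41 untreated, and from 4.90 to 9.25 with a median of 8.03 after ADR. It was higher in 6 of 7, with a value of -0.70 in 1467, and its change of 1.83 ± 0.52 did not pass the test (adjusted p = 0.0531). Tnf (1.04), the macrophage growth factor Csf1 (1.37) and Il18 (1.10) rose. Interferon beta (Ifnb1, 0.14) and interferon gamma (Ifng, 0.00) did not pass the test.

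Matrix proteases rose in part. Of 23 genes on the list of proteases and inhibitors, which also holds 5 IGF binding proteins and the plasminogen activator receptor Plaur, 8 rose and none fell (median 0.44, against 1.97 with 17 higher in the other 7). The 8 were all proteases or inhibitors. The count was 3 without 5043 or 9583, 4 without 1570 or 9584, and 2 without both 1570 and 9584. In a fit over 14 lymphomas, at no Col1a2 change, 0 rose and 1 fell (median 0.02). That point is an extrapolation below every measured Col1a2 change, the smallest being 0.38. The fibroblast list itself had a median of -0.24 there. The collagenase Mmp13 ranged from 3.13 to 8.18 with a median of 4.59 untreated, and from 4.37 to 9.91 with a median of 7.91 after ADR, a change of 2.42 ± 0.38 (adjusted p = 0.00674; higher in 7 of 7, groups overlapping). Macrophage elastase Mmp12 changed by 1.92 (adjusted p = 0.0345) and lost its call without 5043, 1570, 9584 or 9583. The stromelysin Mmp3 (0.02) and the plasminogen activator Plau (0.00) did not pass the test.

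Some genes outside the fibroblast list had a larger mean change in the other 7 and are described for that gap, which has no test. Kitl, the ligand of the receptor Kit, ranged from 3.57 to 4.09 with a median of 3.84 untreated, and from 4.26 to 6.48 with a median of 5.79 after ADR, without overlap. Its change was 0.18 in 1467, 0.70 in 2949 and 0.64 in 5043, and between 2.22 and 2.71 in 1570, 9584, 6054 and 9583. The mean of 1.63 ± 0.33 (adjusted p = 0.0161, and 0.0831 without 1570 and 9584) stood against 4.68 in the other 7. These Kitl values are from its brightest probe set. One almost as bright (mean 5.35 against 5.39) changed by 0.69, against 3.06, and the less bright ones by 0.28 and 0.01. Prss23, a serine protease, changed by 0.77, 0.75 and 1.14 in the first 3 lymphomas, by 1.28 in 1570, by 2.18 in 9584, by 3.13 in 6054 and by 3.07 in 9583. Hmga2, a chromatin protein of embryonic and stromal cells, changed by 0.66 in 1467 and by 2.81 in 9583, a mean of 1.70 ± 0.27 (adjusted p = 0.00693) against 4.30. Feeder RNA in these rises was not tested.

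The chemokine Cxcl5 changed by 0.34 in 1467 and by 2.61 in 9583. Its mean was 1.65 ± 0.29 (adjusted p = 0.00987), against 5.77 in the other 7, the largest gap of any gene called higher there. Emp1, a membrane protein, changed by 1.66 (other 7: 4.33), and Grb10, an adaptor of insulin signalling, by 1.52 (other 7: 4.40). Efemp1, a matrix glycoprotein, changed by 1.76 (other 7: 5.64), and the growth factor Ereg by 0.85 (other 7: 4.64). The call of Efemp1 was lost in 5 of the 7 leave-outs, with an adjusted p of 0.156 without 1570 and 9584, and that of Ereg without 6054. Nid1 (0.96), a basement membrane protein, Cavin2 (0.68), a caveolar coat protein, Ackr3 (0.28), a chemokine scavenger, and the prion protein gene Prnp (1.08) did not pass the test in the 7, against 4.51, 4.25, 3.76 and 4.53 in the other 7. Of the fibroblast list, which carries no test here, Thy1 changed by 0.12 (other 7: 2.84), decorin (Dcn) by 0.44 (other 7: 4.12), Lox by 1.5 (other 7: 4.71) and Ccn2 by 1.61 (other 7: 4.86). Its 29 measured genes had a median change of 0.72, against 2.84.

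Interferon-stimulated genes had similar medians in both sets. Of 33 measured, 16 rose and none fell (median 0.71, against 0.78 with 17 higher in the other 7). The count moved with single lymphomas, from 6 without 5043 or 1570, 7 without 1467 and 8 without 9584 or 6054 to 21 without 2949. It was 6 without both 1570 and 9584, 5 with the lymphoma as a random block and 0 with no block. The mean change over the list was 1.59 in 9584, 1.40 in 1570, 1.29 in 5043, 0.91 in 1467, 0.47 in 9583, 0.38 in 6054 and -0.26 in 2949. So 2949, with the lowest mean of mitotic genes, was the only one of the 7 with an interferon mean below 0.

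Ifit1, which blocks translation of viral RNA, ranged from 2.73 to 5.77 with a median of 3.32 untreated, and from 3.39 to 8.78 with a median of 5.44 after ADR. It was higher in 7 of 7 lymphomas, by 0.36 in 2949 and 3.01 in 9584, a mean of 1.90 ± 0.29 (adjusted p = 0.00611). Rsad2, the antiviral enzyme viperin, changed by 1.29, Mx1, an antiviral GTPase, by 1.72, and Irf7, a transcription factor of the pathway, by 0.82, and all 3 passed the test. The receptor-transporting protein Rtp4 (1.95) and the deconjugase Usp18 (1.86) rose but lost their calls in 4 and 6 of the 7 leave-outs.

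The interferon-stimulated response element, searched as GAAA, any 2 bases and GAAA again on either strand, was held by 16 of 29 promoter windows (55.2%) of the 24 interferon genes matched, against 3.44% of all windows. Windows of Ifit1 (chr19:34640639-34640938, plus strand) and Rsad2 (chr12:26456403-26456702, minus strand) from RefSeq (GRCm38.p6) are shown as members that rose, with the matches in capitals.
Ifit1: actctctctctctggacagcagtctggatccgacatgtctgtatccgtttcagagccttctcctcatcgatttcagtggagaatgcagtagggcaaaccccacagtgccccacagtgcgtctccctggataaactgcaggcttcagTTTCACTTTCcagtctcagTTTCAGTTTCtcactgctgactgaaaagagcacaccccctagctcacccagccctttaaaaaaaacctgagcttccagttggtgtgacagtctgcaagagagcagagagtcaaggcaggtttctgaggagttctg
Rsad2: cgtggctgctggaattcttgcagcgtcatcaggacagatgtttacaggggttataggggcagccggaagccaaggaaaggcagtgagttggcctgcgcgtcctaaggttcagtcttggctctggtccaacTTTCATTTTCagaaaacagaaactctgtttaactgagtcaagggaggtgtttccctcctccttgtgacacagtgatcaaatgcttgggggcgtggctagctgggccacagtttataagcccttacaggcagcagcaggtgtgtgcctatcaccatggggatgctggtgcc
Both genes rose in the 7 lymphomas, by 1.90 and 1.29. Bst2 and Gbp3, whose windows also held 2 matches each, changed by only 0.16 and 0.17.

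Lysosomal genes rose in part. Of 37 measured, 16 rose, 21 did not pass the test and none fell (median 0.43, against 0.79 with 32 higher in the other 7), 10 without 5043, 11 without 1570 and 9584, and 9 with the random block. Atp6v0a1, a subunit of the proton pump that acidifies lysosomes, ranged from 6.41 to 7.21 with a median of 6.92 untreated, and from 7.27 to 8.56 with a median of 8.03 after ADR, without overlap. Its change was 1.17 ± 0.11 on the brightest probe set (adjusted p = 0.00191), and 0.24, -0.06 and 0.61 on its less bright ones. The protease cathepsin D (Ctsd) ranged from 9.07 to 11.31 with a median of 9.79 untreated, and from 10.28 to 12.38 with a median of 11.18 after ADR, a change of 1.23 ± 0.17 (adjusted p = 0.00441) against 2.29. Glb1, the enzyme behind the senescence-associated beta-galactosidase stain, changed by 0.20 ± 0.13 (adjusted p = 0.438), against 0.57 in the other 7. Sqstm1, an autophagy receptor, changed by 0.91 ± 0.10 (adjusted p = 0.0029), and 4 of 30 autophagy genes rose (2 without 1570 and 9584).

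Some lipid genes rose and some fell. Of 12 genes of lipid uptake, storage and cholesterol efflux 4 rose: lipoprotein lipase Lpl (2.0), the droplet coat protein Plin2 (1.53), the fatty acid receptor Cd36 (1.41) and Gpnmb (1.34), a glycoprotein of phagocytes. The call of Cd36 was lost in 6 of the 7 leave-outs. The count was 2 without 5043, 1570 or 9583, and 1 without both 1570 and 9584. No gene of this list was called with the random block. Of 20 cholesterol synthesis genes 4 fell (median -0.30, against -0.88 with 15 lower in the other 7), and none with the random block. Srebf2, the transcription factor of that pathway, ranged from 7.75 to 9.92 with a median of 8.33 untreated, and from 7.02 to 8.88 with a median of 7.42 after ADR, a change of -0.79 ± 0.09 (adjusted p = 0.0029; lower in 7 of 7). Fdps, an enzyme of the pathway, fell by 1.10 but lost its call in 6 of 7 leave-outs, and the count was 1 without 6054 or 9583 and 2 without 1467, 2949 or 5043. No respiratory chain gene of 18 passed the test, while 11 were lower in the other 7. Among all genes, 5.72% rose and 4.61% fell in the 7, and 15.7% fell in the other 7. In a list of 18, no call in the 7 is therefore near the share of all genes.

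B-cell genes changed little. Of 24 measured, 1 rose (Cd72, 0.42, a call kept only without 1467 or 9584) and 1 fell, and the median was -0.06, against -0.68 with 11 lower in the other 7. The sign of this median turned to 0.04 without 6054. Over all genes, 5.72% rose and 4.61% fell in the 7. Cd22, an inhibitory co-receptor of the B-cell receptor, ranged from 10.15 to 11.72 with a median of 11.05 untreated, and from 8.68 to 11.17 with a median of 9.62 after ADR. It was lower in 7 of 7 lymphomas, a change of -1.13 ± 0.20 (adjusted p = 0.0101). Cd79a, the signalling chain of that receptor, changed by -0.12, and Cd79b by 0.05. Vpreb3, a pre-B-cell gene, changed by -0.97 (adjusted p = 0.0592), against -2.89 in the other 7.

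Among ligands of T cells, Cd80, the partner of CD28, was the only one of 18 to pass the test (2 passed without 2949). It ranged from 5.88 to 7.15 with a median of 6.71 untreated, and from 7.43 to 8.82 with a median of 8.41 after ADR, without overlap. The change was 1.60 ± 0.27 (adjusted p = 0.00819), against 1.17 in the other 7. This value rests on the brightest probe set: one almost as bright (mean 7.08 against 7.24) changed by 0.22, and the other 2 by 0.38 and 0.04. Cd274, which encodes the checkpoint ligand PD-L1, changed by 0.75 ± 0.27 (adjusted p = 0.113), against 1.88. None of 12 MHC class I genes and none of 11 MHC class II genes passed the test. With 5.72% of all genes higher and 4.61% lower, few calls would be made in lists this short.

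The response factors of stress gave calls for a minority of each list, beside 5.72% of all genes higher and 4.61% lower. Of 19 AP-1 and early genes 4 rose (median 0.50, against 2.06 with 16 higher in the other 7), 2 without 2949, 9584 or 6054, and 1 without both 1570 and 9584. Klf6, a zinc-finger factor, ranged from 6.81 to 8.27 with a median of 7.95 untreated, and from 8.47 to 10.47 with a median of 8.78 after ADR, without overlap, a change of 1.37 ± 0.22 (adjusted p = 0.00683). Klf4 changed by 1.47 and lost its call in 5 of 7 leave-outs. Of 20 NF-kB targets 4 rose, with 1 left without 5043, 9584, 6054 or 9583 and 2 without 1570 or without both 1570 and 9584. Tnfaip2 changed by 0.95 ± 0.18 (adjusted p = 0.013), and Traf1, an adaptor of TNF receptors, by 1.13, with its call lost in 6 of 7 leave-outs. Ptgs2, the prostaglandin enzyme COX-2, changed by 1.32 (adjusted p = 0.0729), against 4.73 in the other 7. Of 15 NRF2 and iron genes, which guard against oxidation, 4 rose, among them the metal transporter Slc11a1 (0.95) and sulfiredoxin Srxn1 (0.88). In the unfolded protein response the chaperone Dnajb9 rose (0.71) and the oxidase Ero1a fell (-0.93), with 26 of 28 genes not passing. Of 16 genes of glycolysis and sugar use 3 fell and 1 rose (median -0.37, against -0.04 with 2 lower and 2 higher in the other 7), and 6 fell without 2949. The phosphofructokinases Pfkp (-0.93) and Pfkm (-0.86) fell, and Pgd, of the pentose phosphate pathway, rose (0.90), with Pgd's call lost without 1467, 5043 or 6054.

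**Figure D5:**
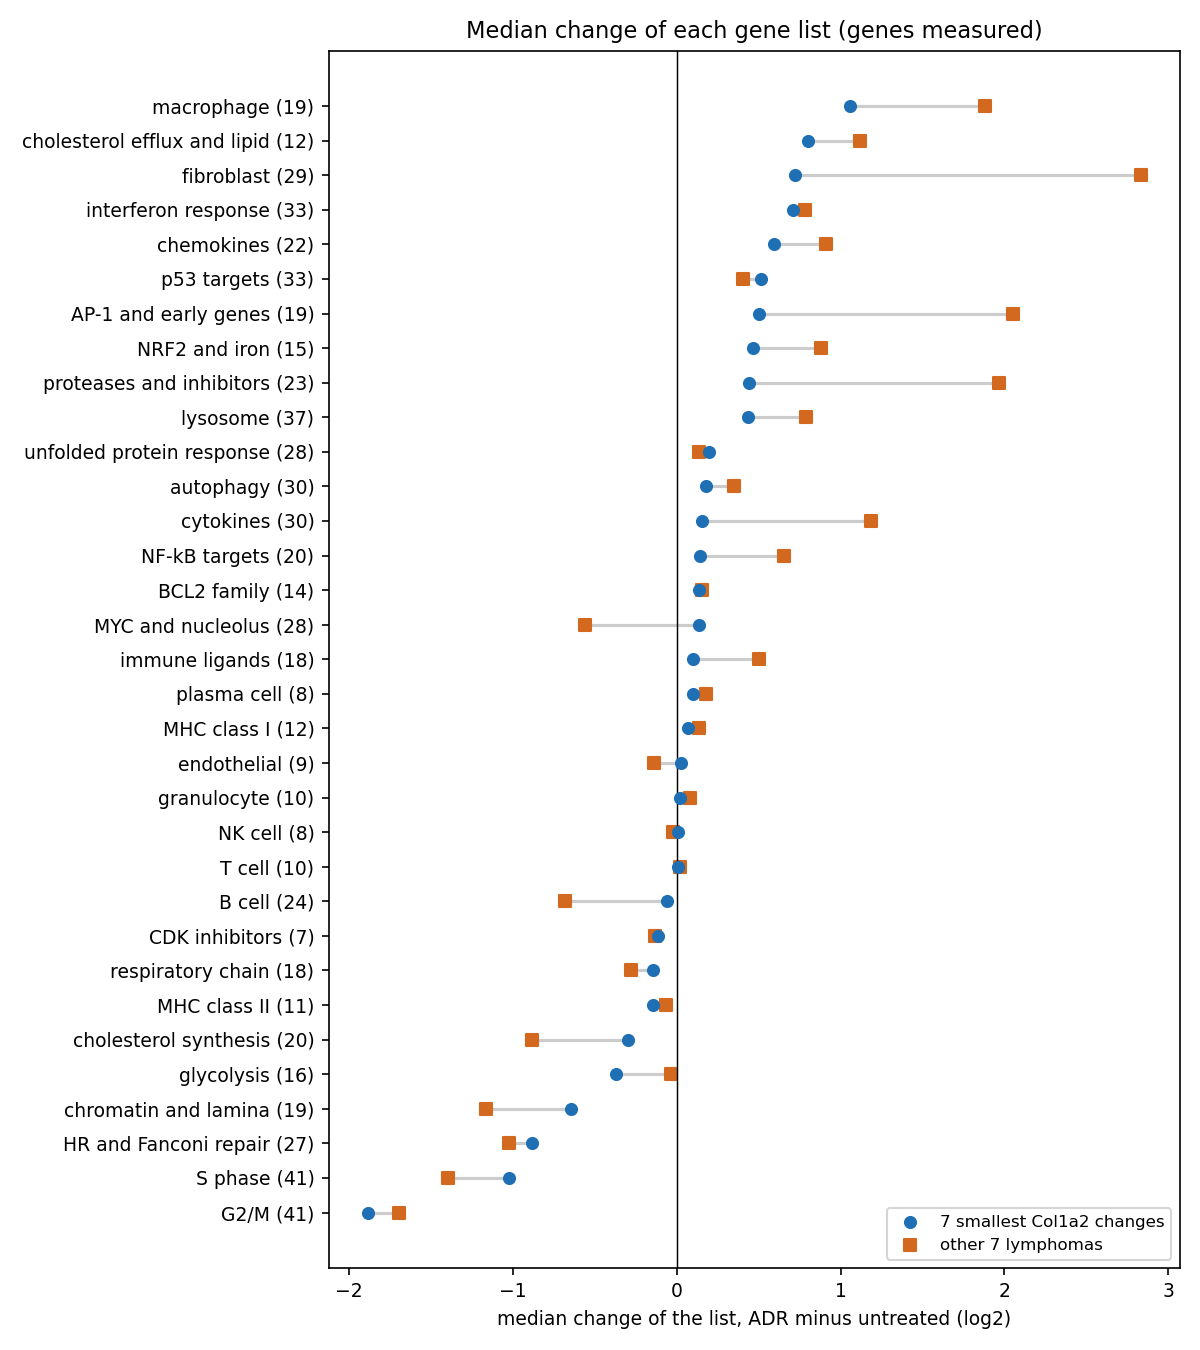
Median change after ADR (log2, horizontal axis) of each gene list with the number of genes measured, for the 7 lymphomas with the smallest Col1a2 change (blue circles) and the other 7 (orange squares). The G2/M medians are -1.89 and -1.70, the interferon medians 0.71 and 0.78, and the fibroblast medians 0.72 and 2.84.

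A few genes rose in the 7 with less or no rise in the other 7, and they follow from the widest gap to the narrowest. Fcmr, the IgM Fc receptor of B cells, ranged from 4.20 to 8.10 with a median of 5.81 untreated, and from 5.69 to 11.20 with a median of 7.01 after ADR. It was higher in 7 of 7, a change of 1.62 ± 0.34 (adjusted p = 0.0188, and 0.0533 without 1570 and 9584), against -0.72 in the other 7. Gpr171 changed by 1.19 (other 7: -0.04), with its call lost in 4 of 7 leave-outs. The lysozyme Lyz1 came next, with 1.12 in the other 7. Cyria, a regulator of actin, changed by 1.17 (other 7: 0.07), with its call lost without 5043. Gm13238 changed by 1.05 ± 0.19 (other 7: -0.04). Ipo4, a nuclear import receptor, ranged from 7.93 to 9.42 with a median of 8.65 untreated, and from 9.17 to 10.14 with a median of 9.76 after ADR, a change of 1.04 ± 0.15 (adjusted p = 0.00556) against -0.03. Calb2, a calcium-binding protein, changed by 2.04 (other 7: 1.04) and lost its call in 4 of 7 leave-outs. Mxd4, a member of the MYC network that opposes MYC, changed by 1.14 ± 0.24 (adjusted p = 0.0174) against 0.15. Acod1 and then Fam120c, which changed by 1.22 (other 7: 0.26) and lost its call in 4 of 7 leave-outs, had the narrowest gaps of the 10. A probe set of Fam120c almost as bright (mean 5.01 against 5.06) changed by 0.01. All 10 genes were picked for the gap, which therefore has no test.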

How the data were processed

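Total RNA was hybridised to Affymetrix mouse arrays, 1 per culture. The values used are the authors' deposited log2 expression values, made with RMA in Partek 6.5 per the submitters' processing notes. The genome build is not given in the sources used here. RMA puts arrays on a common distribution, so a change that moved most genes alike would not show. For arrays their number limits the precision.

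Of 45101 probe sets, 34945 had 1 gene, 932 several and 9160 none (64 controls), by GEO's platform annotation. Each of 18193 genes took its brightest probe set over all arrays, and 9010 had more than 1. Old symbols were updated through a RefSeq table.

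The log2 values were fitted with limma 3.58.1 (R 4.3.3; lmFit, eBayes, two-sided, Benjamini-Hochberg over all genes, threshold 0.05) with the lymphoma as a fixed block, in 14 arrays of 7 lymphomas. The pairing comes from the lymphoma identifiers. Deviations of paired arrays correlated at 0.35 to 0.61, and 5 of 7 untreated arrays matched their own ADR array best. Alternatives took the lymphoma as a random block (duplicateCorrelation) or dropped the block. The fit was tested on simulated data. Levels and changes are on the log2 scale. A call means an adjusted p under 0.05.

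Genes named were the 10 largest rises and falls called in the same direction in all 7 lymphomas, a fixed set of study genes, at most 3 members of each list (by size of change), and genes standing furthest from the other 7; a few list members that did not pass the test, and others said to be, were named after their values were seen. The lymphomas, the 33 gene lists and the named genes were chosen with earlier results of these data known. The alternatives without 1570 and 9584, and with only the lymphomas outside the earlier series, were chosen after seeing the data. Figures were drawn with matplotlib 3.10.9.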

Additional observations from a re-analysis of the deposited data

Results flagged for a closer look

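Among 173 values checked over the 7 lymphomas (140 genes and 33 list means), 9 had 1 lymphoma far from the other 6 by Dixon's criterion, about the number that chance gives at 1 in 20. Cyria changed by 2.93 in 1467, against 0.49 to 1.10 in the others, and Traf1 changed by -0.65 in 1467, against 0.96 to 1.82. Lmnb1 changed by -2.54 in 1570, against -1.10 to -0.23, and the mean of the cholesterol synthesis list was -1.13 there, against -0.44 to -0.02. The ADR array of 1570 is the one with the largest 3' to 5' gaps. Prtn3, a granulocyte protease, changed by -2.94 in 9584, against -0.47 to 0.51. Rad54b, a recombination motor, changed by 0.55 there, against -2.70 to -1.69, and Xbp1, a plasma-cell transcription factor, by -0.65, against 0.32 to 0.82. 9584 is the lymphoma whose arrays differ in a Y-linked gene. Csf3r, the granulocyte growth factor receptor, changed by 1.08 in 9583, against -0.05 to 0.42. The mean of the cholesterol efflux and lipid list was 1.30 in 5043, against 0.52 to 0.79.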

How the results depend on the processing

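The counts of 1040 genes higher and 838 lower moved most with the lymphomas fitted. Leaving out each lymphoma in turn gave 557 to 960 higher and 509 to 779 lower, the fewest without 5043 (557 higher, 512 lower) and without 6054 (604 and 509); without 1570, 681 were higher. With no replicate block, that is without the pairing, 178 were higher and 369 lower. With the lymphoma as a random block, 841 were higher and 828 lower. By list, the number called went with that block from 16 to 5 for interferon genes, from 16 to 9 for lysosomal genes, from 10 to 6 for macrophage genes, from 8 to 5 for proteases and inhibitors, from 4 to 2 for NF-kB targets and for NRF2 and iron genes, and from 4 to 0 for cholesterol synthesis and for cholesterol efflux and lipid genes. With no block these lists had 0, 3, 1, 1, 0, 0, 0 and 0 genes called, and the G2/M list had 37 lower. The 4 lymphomas of the earlier series gave 177 and 333, the 5 smallest Col1a2 changes 226 and 146, and the 9 smallest 1801 and 1505. Without 1570 and 9584 there were 555 higher. The 3 lymphomas outside the earlier series gave 1 higher and 0 lower by limma, with 2706 genes at an unadjusted p under 0.05.

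The probe set with the largest variance turned Bcl2 to 0.16, and the value of Ereg at no Col1a2 change, from a fit over 14 lymphomas, was -0.63. That fit is read at a value below every measured Col1a2 change. It called 1021 genes higher, 580 of them shared with the 7, and 833 lower, 593 of them shared. Its proteases and inhibitors had 0 higher and 1 lower (median 0.02). Chemokines had 3 higher (median 0.32), cytokines 3 (0.15), macrophage genes 6 (1.26) and MYC and nucleolus genes 9 (0.52). G2/M genes had 40 lower (-2.15). The cause was not tested in any of these. Of the 84 named genes called, 33 kept their call without the block, 26 in the 5 smallest and 60 without 1570 and 9584. The fit at no Col1a2 change also kept 60, and the leave-outs kept 63 to 80. Centring kept 84 and quantile normalization 83. G2/M genes lower numbered 40 in all 7 lymphomas and 5 of 41 in the 5 smallest, with a median of -1.87 there. The G2/M median stayed between -2.39 and -1.23 in all 22 alternatives. With 7 pairs, an effect that varies between lymphomas, such as that of Il6, can be large and miss the threshold.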
